A study of Mus musculus with 18 samples.

Results

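The genes described here encode the proteins of the mitochondrial ribosome. They were taken by symbol, as every row of the deposited expression table whose name begins with Mrpl or Mrps followed by a digit. This gave 77 genes of the 24062 in the table, 48 with an Mrpl symbol and 29 with an Mrps symbol. By their place in the particle, 50 belong to the large subunit and 26 to the small subunit, and the large-subunit genes include Mrps30 and Mrps18a in spite of their names. Mrps36 is not a part of the ribosome and is now known as a component of the 2-oxoglutarate dehydrogenase complex. All 77 genes were annotated as protein coding in GENCODE on the GRCm38 (mm10) assembly, on 17 chromosomes. The membership rule used no measured value.

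The mitochondrial ribosome, or mitoribosome, translates the few messenger RNAs encoded by mitochondrial DNA, all of which specify subunits of the oxidative phosphorylation complexes. Its ribosomal RNAs come from the mitochondrial genome, whereas its proteins are encoded in the nucleus, translated in the cytosol and imported. The small subunit reads the messenger RNA, and the large subunit joins the amino acids and anchors the ribosome to the inner membrane. Proximal tubule cells, the main target of the injury studied here, are among the cells of the kidney richest in mitochondria.

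The data are 18 total RNA libraries of kidney cortex from C57Bl/6 mice, 3 in each of 6 groups. The groups were mice labelled Klf6PTKO (PTKO) given aristolochic acid I (AAI) for 3 weeks, PTKO mice left for 3 more weeks of remodeling after AAI (6 weeks in the sample titles), PTKO mice given the DMSO vehicle, and Klf6fl/fl (fl/fl) mice in the same 3 states. Klf6 encodes a zinc finger transcription factor, fl/fl is the label of its floxed allele, and PTKO that of its loss from the proximal tubule. AAI, from Aristolochia plants, is taken up by proximal tubule cells and damages them. Each genotype has 1 DMSO group, which serves both times. The labels do not give the week at which DMSO kidneys were taken, so a comparison of AAI with DMSO may also differ in time. They give neither the driver of the deletion, the age or sex of the mice, nor whether each library is a different mouse. The p-values therefore measure the spread between these libraries, which may be technical in part. The question put to the mitoribosome genes was whether their RNA changed with the injury or stayed level.

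Values are CPM (reads of a gene scaled to the size of its library) as deposited. Library sizes were 21325952 to 27213219 reads in the 3-week AAI groups, from 11722625 to 20063456 in the 6-week AAI groups, and from 16516093 to 20787996 in the DMSO groups. Klf6 itself measured 40.2 to 56.7 CPM in PTKO DMSO libraries and 39.2 to 42.3 CPM in fl/fl DMSO libraries, so its level does not check the genotype labels, and PTKO means labelled PTKO throughout. The summed level of 12 proximal tubule markers was 3005 to 19400 CPM in AAI libraries and 47780 to 52400 CPM in DMSO libraries, with none of the 12 at 0. The summed level of 10 macrophage markers was 1293 to 10190 CPM in AAI libraries and 145.5 to 217.3 CPM in DMSO libraries, also with none at 0. In bulk RNA of this kind, fewer cells of a type and less RNA per cell cannot be told apart, and the part of these shifts in the results below was not tested. Some libraries stood apart from the others of their group. In PTKO 6-week replicate 2 and PTKO DMSO replicate 2, 8 adipocyte markers summed to 449.7 and 111.1 CPM. In fl/fl 6-week replicate 2, the library with the fewest reads, the proximal tubule markers summed to 19400 CPM, against 8233 and 7618 CPM in fl/fl replicates 1 and 3, and the macrophage markers to 3535 CPM, against 6261 and 5601 CPM. In PTKO 6-week replicate 3 the proximal tubule markers summed to 7071 CPM, against 18210 and 15200 CPM in PTKO replicates 1 and 2, and the fibroblast and matrix markers to 257.8 CPM, against 840 and 990 CPM. The first 3 of these libraries were also left out together, and results that turn on PTKO 6-week replicate 3 are given without it.

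The promoters of 4 members are printed here because these genes had the lowest and the highest changes of the family in both genotypes at 3 weeks. Each is the RefSeq window (GRCm38.p6) of 300 bases, from 250 before to 50 after the annotated start, read 5′ to 3′ on the gene's strand. Capitals mark exact matches, on either strand, to CCGGAAG, the core bound by ETS-family factors such as GABP, to CCAAT, the box bound by NF-Y, and to the other motifs named below. Mrpl50 lies at chr4:49521034-49521333 on the minus strand and Mrpl12 at chr11:120484387-120484686 on the plus strand, and both were lowest relative to DMSO. Mrpl33 lies at chr5:31613701-31614000 and Mrpl52 at chr14:54426659-54426958, both on the plus strand, and both were highest relative to DMSO.
Mrpl50: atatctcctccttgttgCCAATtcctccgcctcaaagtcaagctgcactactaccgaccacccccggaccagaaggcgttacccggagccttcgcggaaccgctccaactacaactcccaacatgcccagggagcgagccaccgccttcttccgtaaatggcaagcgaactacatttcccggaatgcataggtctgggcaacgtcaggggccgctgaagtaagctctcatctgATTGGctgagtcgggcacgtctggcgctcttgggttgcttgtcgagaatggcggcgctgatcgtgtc
Mrpl12: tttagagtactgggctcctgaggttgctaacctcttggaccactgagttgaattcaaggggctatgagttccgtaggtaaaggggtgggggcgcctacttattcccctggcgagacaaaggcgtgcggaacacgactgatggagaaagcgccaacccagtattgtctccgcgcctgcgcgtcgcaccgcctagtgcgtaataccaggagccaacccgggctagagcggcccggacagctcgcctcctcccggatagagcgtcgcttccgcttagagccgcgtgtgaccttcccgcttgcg
Mrpl33: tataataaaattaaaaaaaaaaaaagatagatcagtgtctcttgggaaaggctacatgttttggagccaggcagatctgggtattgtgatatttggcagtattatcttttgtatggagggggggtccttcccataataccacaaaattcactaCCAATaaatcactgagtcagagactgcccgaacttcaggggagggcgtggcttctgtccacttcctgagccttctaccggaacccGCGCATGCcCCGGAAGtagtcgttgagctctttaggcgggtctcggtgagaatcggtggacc
Mrpl52: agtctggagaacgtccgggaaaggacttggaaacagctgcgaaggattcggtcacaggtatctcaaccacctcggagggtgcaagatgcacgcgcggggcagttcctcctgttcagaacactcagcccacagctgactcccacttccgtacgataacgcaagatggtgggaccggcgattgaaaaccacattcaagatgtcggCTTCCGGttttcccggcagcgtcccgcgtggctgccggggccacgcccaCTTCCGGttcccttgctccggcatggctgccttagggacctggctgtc
Counted from the annotated start, the CCGGAAG core began at -3 in the Mrpl33 window, and on the reverse strand at -47 and 2 in the Mrpl52 window. It was not found in the windows of Mrpl50 and Mrpl12, which says only that these letters are not in those 300 bases. The Mrpl50 window held CCAAT at -233 and on the reverse strand at -17, and the Mrpl33 window held it at -97. In the Mrpl33 window GCATGCGC, a core of the NRF1 motif, began at -12 on the reverse strand, without overlapping the CCGGAAG core.

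Among the 68 members with a RefSeq window, 74 windows could be searched, and 25 of them (33.8%) held CCGGAAG, against 15.3% of the 13982 windows of all genes tested. AAGATGGC, a core of the YY1 motif, stood in 12 of the 74 windows (16.2%) and in 3.91% of the windows of all genes tested. GCATGCGC stood in 8 windows (10.8%), against 4.61%. The other motifs searched on both strands were close to their share among all genes tested: CACGTG, the E-box bound by MYC, at 9.46% against 9.35%, CCAAT at 40.5% against 36.9%, and TATAAA at 6.76% against 7.69%. These matches are letters in a window, not sites of binding, and no test was made of the differences.

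Of the 77 members, 76 passed the filter of at least 1 CPM in at least 3 libraries. Mrpl23, a large-subunit protein at the exit of the peptide tunnel, did not pass, with 0 to 7 reads per library in all 6 groups. The others were fitted together with all 14604 genes that passed, in limma on log2(CPM + 1), and a change means a Benjamini-Hochberg adjusted p under 0.05. The scale matters for this family. In CPM the median gene of the kidney was 0.36 to 0.45 higher (log2) in AAI than in DMSO libraries. Values below are in CPM unless scaling is named. Scaling means the median-of-ratios method, which sets the median gene of each library level, and the counts of the family and of its main groups are given on both scales.

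After 3 weeks of AAI nearly all mitoribosome genes either fell or did not pass the test in CPM, while most genes of the kidney rose. In PTKO kidneys 3 members rose and 33 fell, and in fl/fl kidneys 6 rose and 30 fell, of 76 in each. Over all genes tested, 57.2% rose and 13.9% fell in PTKO kidneys, and 58.0% rose and 18.2% fell in fl/fl kidneys. The median member change was -0.16 in PTKO kidneys, where the median of all genes was 0.42, and -0.13 in fl/fl kidneys, where it was 0.45. In both genotypes 74 of the 76 members lay below the median gene. After median-of-ratios scaling 0 members rose and 71 fell in PTKO kidneys, where 32.8% of all genes tested rose and 31.5% fell. On the same scale 2 rose and 69 fell in fl/fl kidneys, where 36.4% rose and 34.5% fell. The edgeR quasi-likelihood test on recovered reads gave 0 higher and 70 lower in PTKO kidneys (33.8% and 30.7% of all genes). It gave 2 higher and 69 lower in fl/fl kidneys (36.1% and 34.9%). Without PTKO 3-week replicate 3 the CPM count of members lower in PTKO kidneys was 21.

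**Figure D1:**
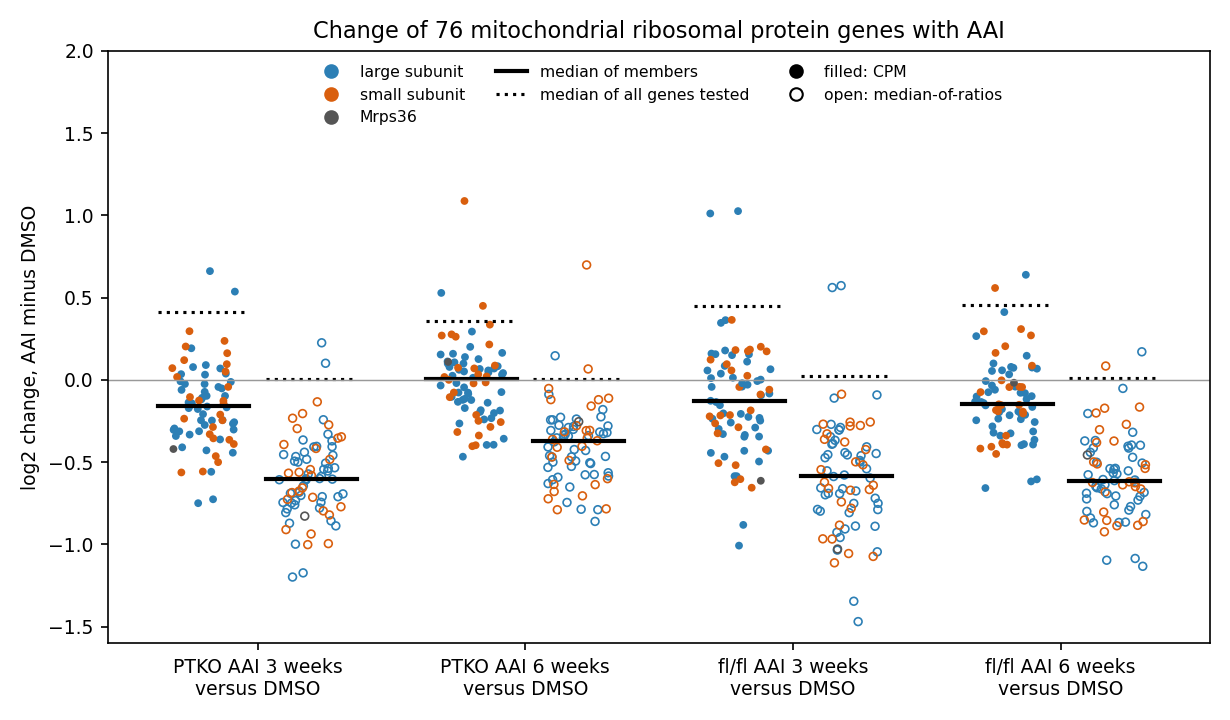
Log2 change with AAI of each of the 76 tested members in the 4 comparisons of AAI with DMSO, in CPM (filled) and after median-of-ratios scaling (open). PTKO means libraries labelled PTKO, solid bars are the median of the members and dotted bars the median of all genes tested: in CPM the members' medians run from -0.16 to 0.01 and those of all genes from 0.36 to 0.45.

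The members' summed level shows the same shift at the scale of single libraries. It was 2687, 2901 and 2528 CPM in PTKO 3-week libraries, against 3107, 3229 and 3087 CPM in PTKO DMSO libraries. It was 2573, 2628 and 2754 CPM in fl/fl 3-week libraries, against 3068, 3012 and 3014 CPM in fl/fl DMSO libraries. All AAI libraries lay below all DMSO libraries of their genotype, and the drop was small beside the loss of proximal tubule markers in the same libraries.

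Mrpl50, a protein found only in mitochondrial ribosomes, and Mrpl12, the stalk protein that recruits translation factors and is also known to bind the mitochondrial RNA polymerase, had the lowest changes. Mrpl50 measured 63.2, 79.3 and 64.4 CPM in PTKO 3-week libraries, against 108.6, 111 and 123 CPM in PTKO DMSO libraries. In fl/fl 3-week libraries it measured 59.8, 57.4 and 44.8 CPM, against 106, 108.5 and 111.5 CPM in fl/fl DMSO libraries. The groups did not overlap in either genotype, and in fl/fl kidneys the level was about halved. The log2 change was -0.73 ± 0.14 (SE, adjusted p = 3.25e-04) in PTKO kidneys and -1.01 ± 0.14 (adjusted p = 9.85e-06) in fl/fl kidneys, by limma. With scaling it was -1.17 and -1.47.

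Mrpl12 averaged 103 ± 9.47 CPM in PTKO 3-week libraries and 173.6 ± 7.81 CPM in PTKO DMSO libraries (SD, n = 3 each). It averaged 88.3 ± 13.6 CPM in fl/fl 3-week libraries and 162 ± 4.05 CPM in fl/fl DMSO libraries (SD, n = 3 each). No AAI library reached the lowest DMSO library. The log2 change was -0.75 ± 0.12 (SE) in PTKO kidneys and -0.88 ± 0.12 in fl/fl kidneys, with adjusted p of 6.38e-05 and 8.63e-06 in limma, and -1.198 and -1.345 with scaling.

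In the small subunit the lowest change was that of Mrps5, the homologue of a bacterial protein at the messenger RNA entry, in PTKO kidneys and that of Mrps35, a mitochondria-specific protein, in fl/fl kidneys. Mrps35 measured 31.7, 36.2 and 31.4 CPM in PTKO 3-week libraries, against 41.4, 44.8 and 39.3 CPM in PTKO DMSO libraries. It measured 32, 30.6 and 29.9 CPM in fl/fl 3-week libraries, against 51.95, 48.1 and 47.5 CPM in fl/fl DMSO libraries. The groups stood clear of each other in both genotypes, with log2 changes of -0.33 ± 0.09 and -0.66 ± 0.09 (SE, adjusted p = 3.45e-03 and 5.31e-06, limma) in PTKO and fl/fl kidneys. Mrps5 changed by -0.56 ± 0.08 and -0.60 ± 0.08 (SE) in PTKO and fl/fl kidneys. With scaling the changes were -0.77 and -1.11 for Mrps35 and -1.001 and -1.055 for Mrps5.

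A pair of large-subunit genes rose. Mrpl52 and Mrpl33 encode small proteins, the first found only in mitochondria and the second the homologue of a bacterial ribosomal protein. Mrpl52 measured 35.8, 38 and 33 CPM in PTKO 3-week libraries, against 20.9, 24.5 and 21.1 CPM in PTKO DMSO libraries. In fl/fl 3-week libraries it measured 41.8, 46.9 and 55.9 CPM, against 24.2, 23.6 and 21.3 CPM in fl/fl DMSO libraries. Every AAI library was above every DMSO library. The log2 change was 0.66 ± 0.11 (SE, adjusted p = 7.17e-05, limma) in PTKO kidneys and 1.03 ± 0.11 (adjusted p = 4.77e-07) in fl/fl kidneys. After median-of-ratios scaling it was 0.23 in PTKO kidneys, where it no longer passed (adjusted p = 0.071, limma), and 0.57 in fl/fl kidneys (adjusted p = 1.40e-04).

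Mrpl33 measured 34.4, 37.1 and 28.2 CPM in PTKO 3-week libraries, against 22.2, 22.2 and 23 CPM in PTKO DMSO libraries. In fl/fl 3-week libraries it measured 41.1, 36.3 and 43.8 CPM, against 24.2, 17.4 and 17.6 CPM in fl/fl DMSO libraries. Its groups did not overlap in either genotype. The log2 change was 0.54 ± 0.13 (SE, adjusted p = 1.72e-03, limma) in PTKO kidneys and 1.01 ± 0.13 (adjusted p = 3.29e-06) in fl/fl kidneys. With scaling it was 0.10 in PTKO kidneys, where it no longer passed (adjusted p = 0.518, limma), and 0.56 in fl/fl kidneys (adjusted p = 1.23e-03). No member rose on both scales in 3-week PTKO kidneys, whereas Mrpl33 and Mrpl52 did so in fl/fl kidneys. Mrpl52 lies beside Mmp14, a gene for a membrane matrix metalloprotease with which it shares no exon bases and which measured 125.9 to 296.3 CPM in 3-week AAI libraries and 6.79 to 14.5 CPM in DMSO libraries.

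The other members called higher in CPM at 3 weeks (Mrpl40, Mrpl54, Mrps15, Mrps18b and Mrps25) had a negative change with scaling. Mrps15 was called higher in CPM and lower with scaling in 3-week fl/fl kidneys. Mrpl40 and Mrps23 were called in opposite directions in the same way in 6-week fl/fl kidneys. Mrps25, a mitochondria-specific protein of the small subunit, averaged 32 ± 1.04 CPM in fl/fl 3-week libraries and 24.7 ± 2.02 CPM in fl/fl DMSO libraries (SD, n = 3 each). Its log2 change of 0.36 ± 0.10 (SE, adjusted p = 3.05e-03, limma) became -0.09 after scaling (adjusted p = 0.448). Mrpl40 changed by 0.36 in fl/fl kidneys in CPM and by -0.09 with scaling. Mrps18b, called higher in PTKO kidneys at 0.30 (adjusted p = 0.0382, limma), was at -0.13 with scaling, and its CPM call was lost on leaving out any 1 of the 6 libraries compared (adjusted p 0.0553 to 0.102).

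**Figure D2:**
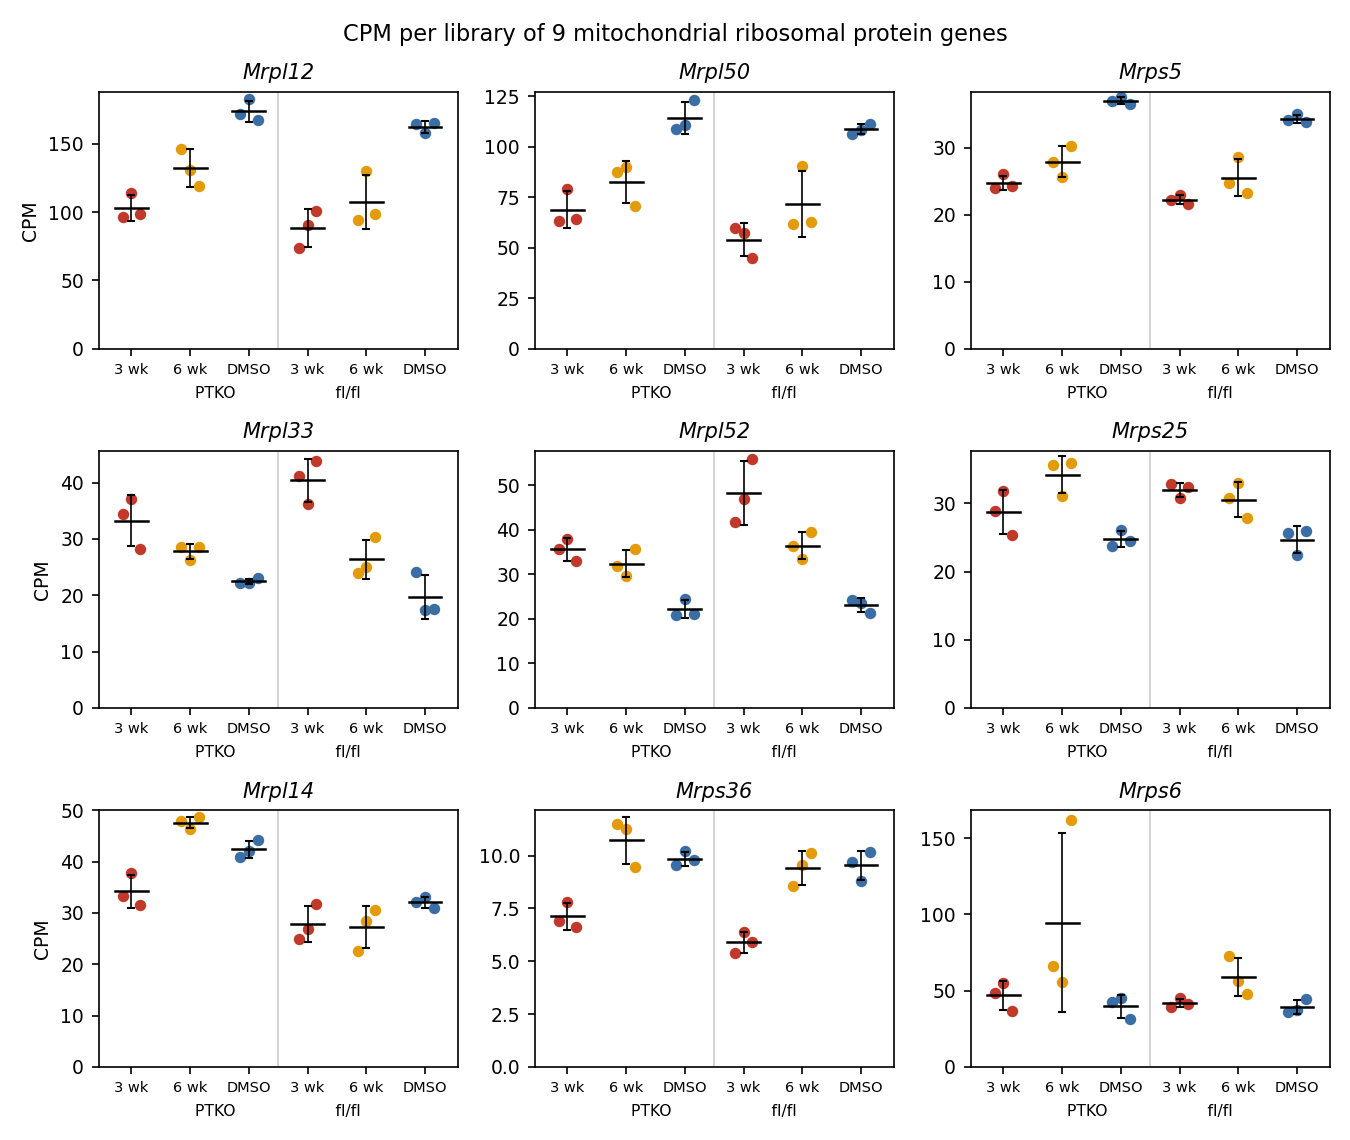
CPM of 9 members in each library, as points with the mean (bar) and SD (whiskers, n = 3) of each group, for libraries labelled PTKO on the left of each panel and fl/fl on the right. Mrpl12, Mrpl50 and Mrps5 are lower in all AAI than in all DMSO libraries of their genotype, whereas Mrpl52 is higher, and 1 PTKO 6-week library of Mrps6 stands at 162 CPM.

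The subunits had close counts and medians. In CPM, 2 of 49 tested large-subunit genes rose and 20 fell in 3-week PTKO kidneys, beside 1 and 12 of 26 small-subunit genes. In fl/fl kidneys 4 large-subunit genes rose and 19 fell, beside 2 and 10 of the small subunit. The median change of the large subunit was -0.16 in PTKO and -0.13 in fl/fl kidneys, and that of the small subunit -0.14 in both. With scaling 0 large-subunit genes rose and 47 fell in PTKO kidneys and 2 rose and 44 fell in fl/fl kidneys, while 0 small-subunit genes rose and 23 and 24 fell. Proteins with a bacterial homologue at the same place in the ribosome and those counted as mitochondria-specific are set apart next. Of 45 bacterial homologues 1 rose and 18 fell in PTKO kidneys and 2 rose and 15 fell in fl/fl kidneys. Of 30 mitochondria-specific proteins 2 rose and 14 fell in PTKO kidneys and 4 rose and 14 fell in fl/fl kidneys. With scaling 43 of the bacterial homologues fell in each genotype, with 0 rising in PTKO and 1 in fl/fl kidneys, and 27 and 25 of the mitochondria-specific proteins fell, with 0 and 1 rising.

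Some members were chosen for their known roles. Mrps12, which lines the decoding centre, changed by -0.24 ± 0.09 (SE, adjusted p = 0.028, limma) in 3-week PTKO kidneys, a call lost without PTKO 3-week replicate 1 or 3 or PTKO DMSO replicate 2 or 3 (adjusted p 0.0511 to 0.111), and was at -0.04 ± 0.09 in fl/fl kidneys, which did not pass. With scaling it was called lower in both, at -0.68 and -0.50 (adjusted p = 2.55e-05 and 3.49e-04, limma). Mrpl45, which holds the ribosome to the inner membrane, was at -0.01 ± 0.09 in PTKO and 0.00 ± 0.09 in fl/fl kidneys in CPM, and at -0.45 in both with scaling (adjusted p = 5.81e-04 and 4.66e-04, limma). The 3 paralogues related to the bacterial S18 protein, of which Mrps18c is counted above as the bacterial homologue and Mrps18a and Mrps18b as mitochondria-specific, gave values on either side of 0 in CPM: Mrps18a -0.11 in PTKO and -0.23 in fl/fl kidneys, Mrps18b 0.30 and 0.17, and Mrps18c 0.07 and 0.18. With scaling all 6 values were negative, from -0.69 to -0.13.

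Mrps36, at 5.41 to 11.5 CPM, was lower at 3 weeks than under DMSO and higher at 6 weeks than at 3 weeks, on both scales. It measured 6.89, 7.83 and 6.64 CPM in PTKO 3-week libraries, 11.5, 11.3 and 9.46 CPM in PTKO 6-week libraries, and 9.54, 10.2 and 9.81 CPM in PTKO DMSO libraries. It measured 5.41, 6.38 and 5.89 CPM in fl/fl 3-week libraries, 8.57, 9.55 and 10.1 CPM in fl/fl 6-week libraries, and 9.69, 8.79 and 10.2 CPM in fl/fl DMSO libraries. The 3-week libraries were below all others of their genotype, and in CPM the 6-week libraries overlapped with DMSO. From limma, the log2 change at 3 weeks was -0.42 ± 0.11 (SE, adjusted p = 2.92e-03) in PTKO and -0.61 ± 0.11 (adjusted p = 9.98e-05) in fl/fl kidneys. Between 6 and 3 weeks it rose by 0.53 ± 0.11 (adjusted p = 8.52e-03) in PTKO and by 0.60 ± 0.11 (adjusted p = 3.73e-03) in fl/fl kidneys. The overlap of 6 weeks with DMSO was not seen with scaling, where PTKO values were 10.96, 10.84 and 8.67 at 6 weeks, against 11.96, 12.51 and 12.26 under DMSO, and fl/fl values were 7.22, 8.75 and 8.69 at 6 weeks, against 11.85, 10.86 and 12.16 under DMSO (scaled CPM). On that scale the 6-week change from DMSO was -0.25 in PTKO kidneys, which did not pass (adjusted p = 0.0663, limma), and -0.46 in fl/fl kidneys, which did (adjusted p = 2.21e-03).

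After the 3 weeks of remodeling the CPM of the family was still below the median gene. In PTKO kidneys 6 members were higher than under DMSO and 14 lower, and in fl/fl kidneys 6 were higher and 27 lower. Over all genes tested 53.7% were higher and 11.4% lower in PTKO kidneys, and 59.8% were higher and 13.9% lower in fl/fl kidneys. The median member change was 0.01 in PTKO kidneys, where the median of all genes was 0.36, and -0.145 in fl/fl kidneys, where it was 0.45. Below the median gene lay 73 members in PTKO and 74 in fl/fl kidneys. With median-of-ratios scaling 1 member was higher and 59 lower in PTKO kidneys (28.7% and 29.0% of all genes tested), and 0 were higher and 70 lower in fl/fl kidneys (33.9% and 32.7%). By edgeR 1 was higher and 57 lower in PTKO kidneys (30.9% and 26.5%), and 0 were higher and 69 lower in fl/fl kidneys (34.0% and 31.9%). The CPM count of members lower in PTKO kidneys was 9 without PTKO 6-week replicate 3 and 8 without the 3 libraries that stood apart, and the count higher in fl/fl kidneys was 3 without fl/fl DMSO replicate 2.

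At the level of single libraries the summed CPM of the members was 3109, 2967 and 3074 in PTKO 6-week libraries, against 3107, 3229 and 3087 in PTKO DMSO libraries. It was 2546, 2911 and 2654 in fl/fl 6-week libraries, against 3068, 3012 and 3014 in fl/fl DMSO libraries. The fl/fl groups did not overlap, with fl/fl replicate 2 nearest to DMSO. The PTKO groups overlapped through 6-week replicate 1 alone, and this overlap depends on Mrps6, whose reads may not be separable from another gene's. Mrps6 measured 66.3 CPM in that library, against 42.5, 45.4 and 31.1 CPM under DMSO. Relative to the median of all genes, the members' median (log2) was -0.43 to -0.31 in PTKO 6-week libraries. It was -0.03 to 0.01 in PTKO DMSO libraries, without overlap. Between genotypes, the 6-week sums were 2967 to 3109 CPM in PTKO and 2546 to 2911 CPM in fl/fl libraries, without overlap. Under DMSO they were 3087 to 3229 CPM in PTKO and 3012 to 3068 CPM in fl/fl libraries, also without overlap. Whether the sums changed differently in the genotypes was not tested.

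Mrpl50 had the lowest change in PTKO 6-week kidneys, at 87.5, 89.9 and 70.8 CPM, against 108.6, 111 and 123 CPM in PTKO DMSO kidneys. In fl/fl 6-week kidneys it measured 61.75, 90.3 and 62.95 CPM, against 106, 108.5 and 111.5 CPM in fl/fl DMSO kidneys. The groups stood apart in both genotypes, and the log2 changes were -0.47 ± 0.14 (SE, adjusted p = 0.0101, limma) in PTKO and -0.62 ± 0.14 (adjusted p = 1.17e-03) in fl/fl kidneys. The PTKO call was lost without PTKO 6-week replicate 3 (-0.36, adjusted p = 0.0548). Mrpl4, which lines the peptide tunnel, had the lowest change of the family in 6-week fl/fl kidneys, at 39.3, 44.7 and 40.8 CPM, against 67.2, 65.7 and 65.4 CPM in fl/fl DMSO kidneys. No 6-week library came near the DMSO libraries, and the log2 change was -0.66 ± 0.08 (SE, adjusted p = 2.10e-06, limma). In PTKO kidneys it was -0.40 ± 0.08 (SE, adjusted p = 4.37e-04, limma). Mrps31, a mitochondria-specific protein of the small subunit, changed by -0.40 ± 0.11 (SE, adjusted p = 4.98e-03, limma) in PTKO and -0.39 ± 0.11 (adjusted p = 4.69e-03) in fl/fl 6-week kidneys. With scaling the 6-week changes in PTKO and fl/fl kidneys were -0.86 and -1.10 for Mrpl50, -0.79 and -1.13 for Mrpl4, and -0.79 and -0.86 for Mrps31.

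Mrpl52 remained higher than under DMSO at 6 weeks in CPM. It measured 31.8, 29.7 and 35.8 CPM in PTKO 6-week libraries, against 20.9, 24.5 and 21.1 CPM in PTKO DMSO libraries, and the groups did not overlap. The log2 change was 0.53 ± 0.11 (SE, adjusted p = 7.09e-04, limma) in PTKO and 0.64 ± 0.11 (adjusted p = 9.16e-05) in fl/fl kidneys. With scaling the values were 0.15 and 0.17 and did not pass in either genotype (adjusted p = 0.244 and 0.162). Mrpl33, at 0.41 in fl/fl kidneys in CPM (adjusted p = 9.85e-03, limma), was at -0.05 with scaling, and its CPM call was lost without fl/fl 6-week replicate 3 or fl/fl DMSO replicate 2 (adjusted p = 0.0587 and 0.0524). Mrps25 at 0.45 in PTKO kidneys in CPM (adjusted p = 9.09e-04, limma) was at 0.07 with scaling (adjusted p = 0.587).

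Mrps6, the homologue of a bacterial small-subunit protein, had the largest positive change at 6 weeks in PTKO kidneys. It measured 66.3, 55.6 and 162 CPM there, against 42.5, 45.4 and 31.1 CPM in PTKO DMSO libraries. All 3 AAI libraries were above all DMSO libraries, but replicate 3 held more than double the level of the others. The log2 change was 1.09 ± 0.29 (SE, adjusted p = 3.93e-03, limma), and 0.70 with scaling (adjusted p = 0.0416), the single rise on both scales at 6 weeks. Without replicate 3 it was 0.62 in CPM (adjusted p = 0.0127), and no fit without replicate 3 was run with scaling. The scaled values were 63.25, 53.54 and 148.5 at 6 weeks, against 53.27, 55.67 and 38.88 under DMSO (scaled CPM). On that scale the groups overlap, and the rise rests largely on replicate 3. Mrps6 shares exon bases on the same strand with Slc5a3, a myo-inositol transporter gene, which measured 124, 105 and 238 CPM in the same PTKO 6-week libraries, so reads of these genes may not be separable and the value of Mrps6 is uncertain. In fl/fl 6-week kidneys Mrps6 was at 0.56 ± 0.29 (SE), which did not pass (adjusted p = 0.0919), and at 0.08 with scaling.

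The genotypes share no library, so their responses can be set side by side. Across the 76 members the log2 changes with AAI correlated at Pearson r = 0.893 (Spearman 0.866) between PTKO and fl/fl kidneys at 3 weeks and at 0.878 (0.854) at 6 weeks. These values are over genes, which are not independent replicates. At 3 weeks 26 members fell in both genotypes in CPM, which is 78.8% of the 33 in PTKO and 86.7% of the 30 in fl/fl kidneys. Of all genes tested 1872 fell in both, 92.1% of those that fell in PTKO and 70.6% of those that fell in fl/fl kidneys. At 6 weeks 14 members were lower in both, which is all 14 in PTKO and 51.9% of the 27 in fl/fl kidneys, where for all genes tested the shares were 87.8% and 71.5%. With scaling 68 members fell in both at 3 weeks (95.8% of those in PTKO and 98.6% of those in fl/fl kidneys, beside 89.5% and 81.7% for all genes). On the same scale 59 were lower in both at 6 weeks. These were 100% of those in PTKO and 84.3% of those in fl/fl kidneys, beside 90.3% and 80.2% for all genes.

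**Figure D3:**
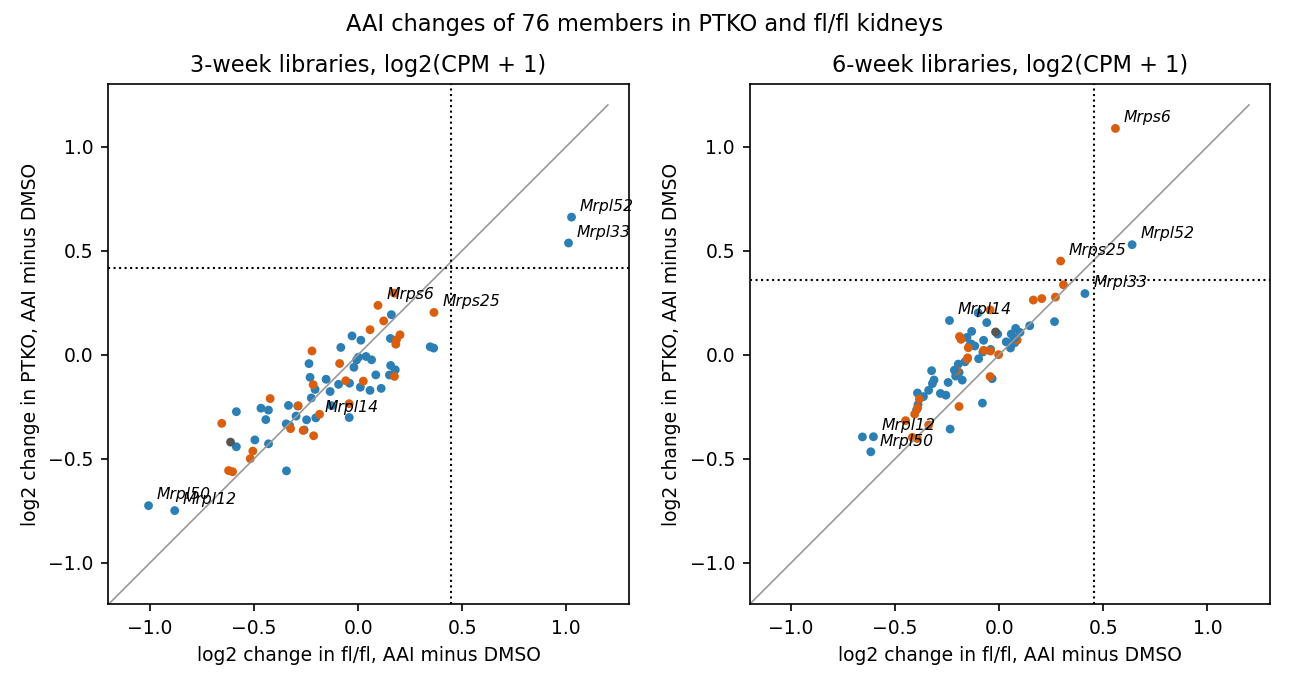
Log2 change with AAI of each of the 76 members in PTKO kidneys (vertical) against fl/fl kidneys (horizontal) at 3 weeks (left) and 6 weeks (right), in CPM, with large-subunit genes in blue, small-subunit genes in orange and Mrps36 in grey. The solid line marks equal change and the dotted lines the median of all genes tested (0.42 and 0.36 in PTKO, 0.45 and 0.45 in fl/fl); Mrpl52 and Mrpl33 are the members above both medians at 3 weeks.

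The test of the difference between these responses passed for no member. In limma 0 members passed the genotype by AAI interaction at 3 weeks, with 7 at an unadjusted p under 0.05, and edgeR also gave 0, with 6. Over all genes tested 0.164% were higher and 0.116% lower by limma, and 0.0753% and 0.0479% by edgeR. At 6 weeks limma and edgeR gave 0 members, with 3 and 13 at an unadjusted p under 0.05, and 0.0274% of all genes were higher and 0.0411% lower by limma, and 0.00685% and 0.00% by edgeR. These shares of all genes are at an adjusted p under 0.05. The share of all genes at an unadjusted p under 0.05 is not given here, so the unadjusted counts of members have no background. The 95% interval of a member's interaction, before adjustment, had a median half-width of 0.29 on the log2 scale. A call after adjustment over all genes needs more than that, so larger differences could also be missed. The members' interactions ran from -0.475 to 0.325 at 3 weeks and from -0.152 to 0.529 at 6 weeks without a call. The median interaction of the members was -0.01 at 3 weeks, beside -0.02 for all genes, and 0.12 at 6 weeks, beside -0.08.

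Under DMSO no member passed the test between genotypes. Both limma and edgeR gave 0 calls, with 4 and 3 members at an unadjusted p under 0.05. The shares of all genes that follow count calls, not unadjusted p. Over all genes 0.192% were higher and 0.0959% lower in PTKO kidneys by limma in CPM, 0.193% and 0.0825% with scaling, and 0.171% and 0.0548% by edgeR. The widest 95% interval of a member reached 0.613 on either side of its difference (log2). At 3 weeks Mrpl52 and Mrpl40 were lower in PTKO than in fl/fl kidneys, where 6.22% of all genes were higher and 8.00% lower. With scaling (6.81% and 6.53%) and by edgeR (7.72% and 5.72%) Mrpl52 alone was called. Mrpl52 averaged 35.6 ± 2.52 CPM in PTKO and 48.2 ± 7.13 CPM in fl/fl 3-week libraries (SD, n = 3 each). The difference of -0.42 ± 0.11 (SE, adjusted p = 0.0225, limma) was lost without PTKO 3-week replicate 2 or 3 or fl/fl 3-week replicate 2 or 3 (adjusted p 0.0551 to 0.130). Mrpl40, at -0.25 ± 0.08 (SE, adjusted p = 0.0499, limma), was lost with scaling (adjusted p = 0.130) and without any of 5 of the 6 libraries, all but fl/fl 3-week replicate 1 (adjusted p 0.0755 to 0.230).

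At 6 weeks 8 members were higher in PTKO than in fl/fl kidneys and 0 lower, where 3.27% of all genes were higher and 11.8% lower. They were Mrpl14, Mrpl28, Mrpl30, Mrpl34, Mrpl38, Mrpl4, Mrps12 and Mrps7. With scaling 17 were higher (5.56% of all genes, with 6.20% lower) and by edgeR 22 (5.64% and 4.64%), and 0 were lower by either. The median member difference was 0.16, beside -0.11 for all genes, and 74 of 76 members were above the median gene. The count in CPM ran from 1, without PTKO or fl/fl 6-week replicate 1, through 2 without fl/fl replicate 3, 4 without PTKO replicate 2 and 5 without PTKO replicate 3, to 18 without fl/fl replicate 2. Without all 3 libraries that stood apart it was 13. In these libraries the 10 macrophage markers summed to 1293 to 2889 CPM in PTKO and 3535 to 6261 CPM in fl/fl kidneys, and the 12 proximal tubule markers to 7071 to 18210 CPM in PTKO and 7618 to 19400 CPM in fl/fl kidneys, and their part in the difference was not tested.

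Mrpl14, which forms a bridge between the subunits, had the lowest adjusted p of these. It measured 47.8, 46.3 and 48.6 CPM in PTKO 6-week libraries, against 22.6, 28.4 and 30.5 CPM in fl/fl 6-week libraries. The genotypes did not overlap at 6 weeks, and the difference was 0.80 ± 0.11 (SE, adjusted p = 6.34e-04, limma). Under DMSO it already measured 41, 42 and 44.1 CPM in PTKO libraries, against 32, 33.1 and 31 CPM in fl/fl libraries, again without overlap, though the difference of 0.39 ± 0.11 (SE) did not pass over all genes (adjusted p = 0.254, limma). The interaction at 6 weeks was 0.40 ± 0.15 (SE, adjusted p = 0.267, limma). Mrpl14 overlaps the exons of Tmem63b on the opposite strand, and whether the counting used strand is not given in the sources used here. Mrpl30 and Mrpl38, both of the large subunit, differed by 0.31 ± 0.08 and 0.29 ± 0.08 (SE, adjusted p = 0.0161 and 0.0254, limma). The call of Mrpl30 was lost without PTKO or fl/fl 6-week replicate 1 (adjusted p = 0.0594 and 0.0929), and that of Mrpl38 without PTKO replicate 1 or 2 or fl/fl replicate 1 or 3 (0.0653 to 0.118).

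Between 6 and 3 weeks few members changed. In PTKO kidneys 7 were higher at 6 weeks (Mrpl14, Mrpl34, Mrpl38, Mrpl41, Mrpl42, Mrpl46 and Mrps36) and 0 lower, where 2.92% of all genes were higher and 8.26% lower. With scaling 9 were higher (3.65% of all genes, with 5.84% lower) and by edgeR 11 (3.99% and 4.77%). The CPM count was 2 without PTKO 6-week replicate 1 and 1 without PTKO 3-week replicate 1 or 3. Mrpl42, a mitochondria-specific large-subunit protein, averaged 83.6 ± 2.16 CPM in PTKO 6-week libraries and 63.3 ± 6.35 CPM in PTKO 3-week libraries (SD, n = 3 each), a log2 change of 0.40 ± 0.10 (SE, adjusted p = 0.0213, limma). It was lost without replicate 1 or 3 of either group (adjusted p 0.0519 to 0.0878), as was the change of Mrpl14 (0.47 ± 0.11, adjusted p = 0.0144) without PTKO 3-week replicate 1 or 3 (0.0564 and 0.0628). Every 6-week library of Mrpl42 was above every 3-week library.

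In fl/fl kidneys Mrps36 was higher at 6 than at 3 weeks and 4 members were lower, Mrpl27, Mrpl33, Mrpl52 and Mrpl54, where 7.16% of all genes were higher and 6.07% lower. Scaling (5.78% and 7.36% of all genes) and edgeR (6.18% and 5.60%) gave the same counts. The count lower was 0 without fl/fl 3-week replicate 3, 1 without fl/fl 6-week replicate 1 or 2, 2 without fl/fl 6-week replicate 3 or fl/fl 3-week replicate 2, and 0 without the 3 libraries that stood apart. Mrpl33 measured 23.9, 25 and 30.3 CPM in fl/fl 6-week libraries, against 41.1, 36.3 and 43.8 CPM in fl/fl 3-week libraries. The times did not overlap, and the log2 change was -0.60 ± 0.13 (SE, adjusted p = 9.14e-03, limma), with an adjusted p of 0.051 without fl/fl 3-week replicate 3. Mrpl52 changed by -0.39 ± 0.11 (SE, adjusted p = 0.0333, limma), and lost the call without fl/fl 6-week replicate 1 or 2 or fl/fl 3-week replicate 2 or 3 (adjusted p 0.059 to 0.160).

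Mitochondrial translation factors and the genes that charge mitochondrial transfer RNAs had lower medians than the ribosomal proteins. Of 12 translation factors tested 0 rose and 7 fell in 3-week PTKO kidneys and 0 rose and 11 fell in fl/fl kidneys, with median changes of -0.37 and -0.44. With scaling all 12 fell in both genotypes, at medians of -0.78 and -0.87. Of all genes tested at 3 weeks, 57.2% rose and 13.9% fell in PTKO and 58.0% and 18.2% in fl/fl kidneys in CPM. With scaling these shares were 32.8% and 31.5% in PTKO and 36.4% and 34.5% in fl/fl kidneys. They stand beside the 3-week counts of all lists below. Gfm1, the elongation factor that moves the ribosome along the messenger RNA, averaged 97.4 ± 8.99 CPM in PTKO 3-week libraries and 178.8 ± 6.07 CPM in PTKO DMSO libraries (SD, n = 3 each). Its log2 change was -0.87 ± 0.12 (SE, adjusted p = 1.44e-05, limma) in PTKO and -1.25 ± 0.12 (adjusted p = 1.90e-07) in fl/fl kidneys. Of 20 genes that charge mitochondrial transfer RNAs, 0 rose and 8 fell in PTKO and 0 rose and 13 fell in fl/fl kidneys, with medians of -0.23 and -0.32, and with scaling 19 and 20 fell. Rars2, the arginine synthetase, changed by -0.70 ± 0.08 in PTKO and -1.06 ± 0.08 in fl/fl kidneys (SE, adjusted p = 1.39e-06 and 9.26e-09, limma). Gatb, listed under its older symbol Pet112 and part of the enzyme that makes glutamine transfer RNA, changed by -1.17 ± 0.15 and -1.67 ± 0.15 (SE). With scaling these genes had changes of -1.32 and -1.71 (Gfm1), -1.15 and -1.52 (Rars2) and -1.62 and -2.13 (Pet112) in PTKO and fl/fl kidneys.

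Genes that act before or during assembly of the ribosome differed among themselves. Of 12 genes for mitochondrial transcription and messenger RNA stability 0 rose and 7 fell in 3-week PTKO and 0 rose and 9 fell in fl/fl kidneys, with medians of -0.28 and -0.38, and with scaling 11 fell in each. Lrpprc, which stabilises mitochondrial messenger RNAs, changed by -0.66 ± 0.14 in PTKO and -1.08 ± 0.14 in fl/fl kidneys (SE, adjusted p = 5.41e-04 and 3.05e-06, limma). Of 24 assembly genes 1 rose and 5 fell in PTKO and 5 rose and 8 fell in fl/fl kidneys, with medians of 0.01 and -0.04, whereas with scaling 0 rose in either genotype and 21 and 17 fell. The 6 ribosome proteins with other symbols had medians of -0.16 and -0.05. Among them Ict1, the older symbol of Mrpl58, which frees the peptide from stalled ribosomes, was at -0.19 ± 0.10 in PTKO and -0.10 ± 0.10 in fl/fl kidneys (SE), which did not pass in CPM (adjusted p = 0.103 and 0.391, limma) but did with scaling, at -0.63 and -0.55 (adjusted p = 5.50e-05 and 1.45e-04).

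Nuclear genes for oxidative phosphorylation subunits, the partners of the proteins that the mitoribosome makes, had medians lower again. Of 78 tested, 3 rose and 59 fell in 3-week PTKO and 3 rose and 61 fell in fl/fl kidneys, with medians of -0.40 and -0.48. With scaling 1 rose and 73 fell in PTKO and 2 rose and 75 fell in fl/fl kidneys, with medians of -0.84 and -0.94. Cytosolic ribosomal proteins moved the other way in CPM, with 52 of 66 rising and 1 falling in PTKO and 61 rising and 1 falling in fl/fl kidneys, at medians of 0.60 and 0.96. With scaling 19 of 64 cytosolic genes rose and 3 fell in PTKO kidneys, where 32.8% of all genes rose and 31.5% fell. The rises there were near the share of all genes. In fl/fl kidneys 48 rose and 3 fell, where 36.4% of all genes rose and 34.5% fell. The scaled medians were 0.21 in PTKO and 0.55 in fl/fl kidneys. In the 3-week libraries taken singly, the median of the mitoribosome genes lay above that of the oxidative phosphorylation genes and below that of all genes in all 6. At 6 weeks, oxidative phosphorylation genes had 5 higher and 23 lower in PTKO and 3 higher and 50 lower in fl/fl kidneys than under DMSO in CPM, and translation factors had 0 higher and 5 and 6 lower. With scaling 2 oxidative phosphorylation genes were higher and 65 lower in PTKO and 3 higher and 73 lower in fl/fl kidneys, and all 12 translation factors were lower in both. In CPM, cytosolic ribosomal proteins had 47 higher and 3 lower in PTKO and 50 higher and 1 lower in fl/fl kidneys, and with scaling 15 higher and 4 lower, and 18 higher and 5 lower. Of all genes tested at 6 weeks, 53.7% were higher and 11.4% lower in PTKO and 59.8% and 13.9% in fl/fl kidneys in CPM. With scaling the shares were 28.7% and 29.0% in PTKO and 33.9% and 32.7% in fl/fl kidneys. The scaled cytosolic counts higher were not above these shares. These lists differ from each other by description only, since no test of one list against another was made.

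**Figure D4:**
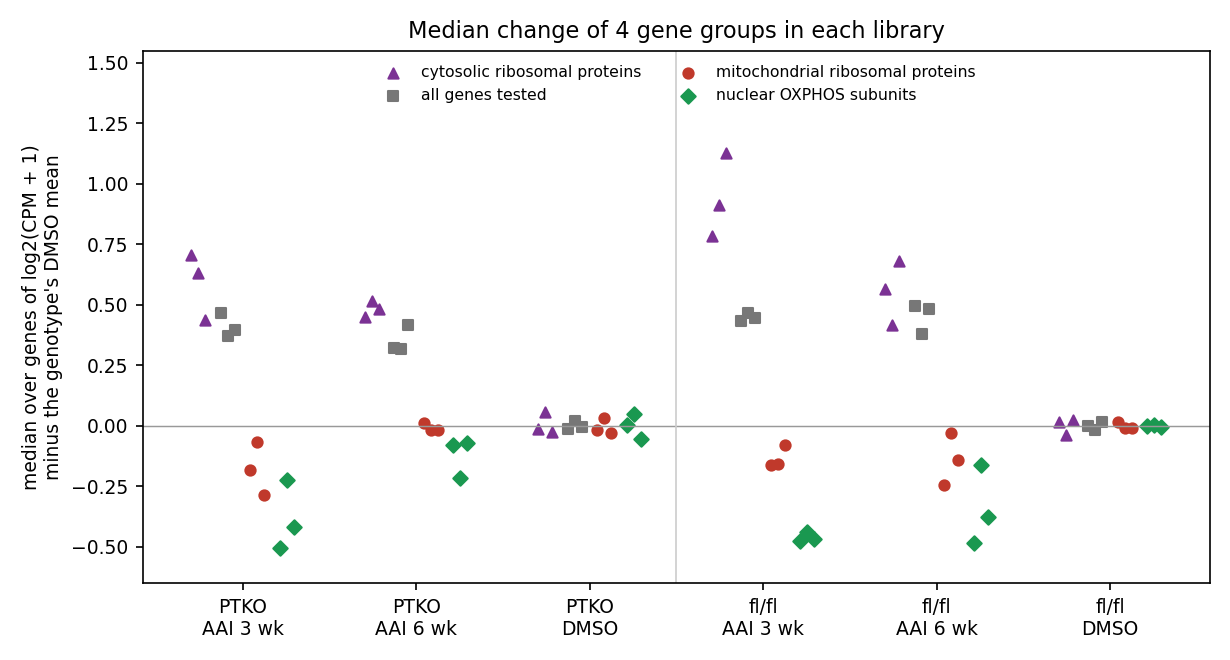
Median over genes of the log2(CPM + 1) difference from the mean of the genotype's DMSO libraries, for 4 gene groups in each library, with libraries labelled PTKO on the left. In 3-week libraries the mitoribosome genes lie between -0.28 and -0.07, the oxidative phosphorylation genes between -0.50 and -0.23, all genes between 0.37 and 0.47 and cytosolic ribosomal proteins between 0.44 and 1.13.

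Of 9 regulators of mitochondrial gene expression, 5 rose and 2 fell in 3-week PTKO kidneys and 5 rose and 3 fell in fl/fl kidneys in CPM, whereas with scaling 3 rose and 4 fell in both. Of all genes tested, 57.2% in PTKO and 58.0% in fl/fl kidneys rose in CPM, and 32.8% and 36.4% with scaling. The regulators' counts of rises were near these shares. Esrra, a nuclear receptor that drives mitochondrial genes, averaged 87.1 ± 2.04 CPM in PTKO 3-week libraries and 121 ± 4.07 CPM in PTKO DMSO libraries, and 77 ± 2.86 CPM in fl/fl 3-week libraries and 121.7 ± 5.49 CPM in fl/fl DMSO libraries (SD, n = 3 each). It fell by 0.47 ± 0.07 in PTKO and by 0.65 ± 0.07 in fl/fl kidneys on the log2 scale (SE, adjusted p = 3.35e-05 and 7.25e-07, limma), and by 0.92 and 1.12 with scaling. Ppargc1a, a coactivator of mitochondrial biogenesis, was at -0.40 ± 0.20 in PTKO kidneys, which did not pass (adjusted p = 0.0871, limma), and -0.85 ± 0.20 in fl/fl kidneys (SE, adjusted p = 1.21e-03), and with scaling it fell in both, by 0.85 (adjusted p = 1.30e-03) and 1.31 (adjusted p = 1.79e-05). Myc, which binds the E-box, rose by 2.93 ± 0.30 and 3.03 ± 0.30 (SE), and by 2.52 and 2.60 with scaling. Of the factors whose motifs were searched, Gabpa was at -0.16 in PTKO and -0.21 in fl/fl kidneys, neither of which passed in CPM, Yy1 rose by 0.30 and 0.36, and Nrf1 rose by 0.54 and 0.65. With scaling these 6 values were -0.60 and -0.67 for Gabpa, both called, -0.15 and -0.10 for Yy1 and 0.11 and 0.21 for Nrf1, none of them called.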

How the data were processed

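The authors deposited CPM of 24062 genes in 18 libraries. The mm10 build, kallisto and bcl2fastq 2.19 are named in the submitters' processing notes. All 433116 CPM values (100%) were whole reads within 0.01 of the library's step, so reads were recovered for edgeR. The depths are those of the recovered totals, and a count of 0 allows up to 3 reads of a library, for counting error only.

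In R 4.3.3, limma 3.58.1 fitted log2(CPM + 1) with a variance trend, 6 group means and 12 residual degrees of freedom. Tests were two-sided, with Benjamini-Hochberg adjustment over the 14604 genes that reached 1 CPM in 3 or more libraries. A call is an adjusted p under 0.05. Median-of-ratios factors came from 14733 genes. Alternatives were a pseudocount of 0.1, no filter, that scaling, the replicate number as a block, edgeR 4.0.16 (quasi-likelihood, TMM), each library left out in turn and, added after seeing the data, 3 libraries that stood apart left out together. The limma fit was also run on simulated reads, in which a set of genes changed in the fl/fl 3-week libraries and no other gene differed between groups. The simulation held no shift of most genes, as seen with AAI in CPM, so it does not bear on the choice of scale.

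The members and lists were chosen with earlier results of these data known. Named members are the 3 highest and 3 lowest changes in each comparison of AAI with DMSO, the 3 smallest adjusted p in each other comparison, and fixed examples by role. Other members named to complete a count of called genes were chosen after their values were seen. Gene positions come from GENCODE release M21 and promoter windows from RefSeq. Of the 77 members, 23 share exon bases with another gene of the table, 4 of them on the same strand.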

Additional observations from a re-analysis of the deposited data

How the results depend on the processing

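The direction of the family relative to the median gene held under every alternative run, with the median member change minus the median of all genes negative in all 4 comparisons of AAI with DMSO. Scaling moves all genes of a library together, so the scaling and edgeR runs could hardly change this difference and are no test of it. Without the filter, where all 24062 genes enter, its size was smaller, at -0.362 and -0.179 in PTKO at 3 and 6 weeks and -0.341 and -0.384 in fl/fl. It was -0.631 with a pseudocount of 0.1 in fl/fl at 3 weeks, and -0.634 there and -0.404 in PTKO at 6 weeks by edgeR. Counts of calls depended on scaling. At 3 weeks 0 members were higher and 71 (scaling) or 70 (edgeR) lower in PTKO, and 2 higher and 69 lower in fl/fl by both. At 6 weeks 1 was higher and 59 or 57 lower in PTKO, and 0 higher and 70 or 69 lower in fl/fl.

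Leaving out 1 library in turn gave 21 to 36 members lower in PTKO and 23 to 27 lower in fl/fl at 3 weeks. At 6 weeks it gave 9 to 15 lower in PTKO, 18 to 37 lower in fl/fl and 3 to 6 higher in fl/fl. The ranges were 0 to 4 lower in fl/fl and 1 to 9 higher in PTKO between 6 and 3 weeks, and 0 to 2 lower at 3 weeks and 1 to 18 higher at 6 weeks in PTKO against fl/fl. The median interaction minus that of all genes ran from -0.066 to 0.054 at 3 weeks and from 0.131 to 0.293 at 6 weeks. Without the 3 libraries that stood apart, 8 were lower in PTKO at 6 weeks, 0 lower in fl/fl between 6 and 3 weeks, and 1 higher and 1 lower at 3 weeks and 13 higher at 6 weeks in PTKO against fl/fl. In that comparison at 3 weeks 1 was lower with a pseudocount of 0.1, scaling and edgeR, and at 6 weeks 17 and 22 were higher with scaling and edgeR. By edgeR 11 were higher in PTKO between 6 and 3 weeks.

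No steady pairing by replicate number was seen. In 45 same-numbered pairs the deviations from group means correlated at -0.372 to 0.491. In 0 of 15 pairs of groups were all over 0.1. Differently numbered pairs were not compared, so this check cannot show that the libraries were unpaired. With the replicate number as a block 2 members were lower between 6 and 3 weeks in fl/fl and 1 in PTKO against fl/fl at 3 weeks, and the counts lower at 3 weeks were 32 in PTKO and 30 in fl/fl.

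With scaling the change turned from positive to negative for 16 members in PTKO and 25 in fl/fl kidneys at 3 weeks and for 36 and 17 at 6 weeks. Among the members named for these comparisons, the sign changed with scaling and edgeR for Mrps18b (-0.134 and -0.125) and Mrps18c (-0.354 and -0.358) in PTKO at 3 weeks, for Mrps25 (-0.087 and -0.109), Mrpl45 (-0.454 and -0.485), Mrps18b (-0.269 and -0.302) and Mrps18c (-0.257 and -0.288) in fl/fl at 3 weeks, and for Mrpl33 (-0.052 and -0.062) in fl/fl at 6 weeks. Values near 0 also changed sign on leaving out libraries: Mrps12 (-0.114 to 0.016) and Mrpl45 (-0.036 to 0.032) in fl/fl at 3 weeks, and Mrpl45 (-0.076 to 0.024, and 0.001 without the 3 libraries) and Mrps18c (-0.01 to 0.177) in PTKO. Depth was not limiting for tested members, and Mrpl23, at 0 to 7 reads a library, could not be tested. The median half-width of a member's 95% interval was 0.20 (log2) between groups and 0.29 for an interaction.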
